A study of Mus musculus with 3 samples.

Results

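The genes described here are the 5 chemokines Cxcl9, Cxcl10, Cxcl12, Cxcl14 and Cxcl16 and the 3 receptors Cxcr3, Cxcr4 and Cxcr6. They were taken by name, not by their values, and are 8 of the 36530 features in the count tables of a single-cell RNA study of mouse melanoma. The 3 tumors came from mice on a C57BL/6 background (C57BL/6J in the study's methods) that carried Braf LSL.V600E and Tyr.CreER among their alleles, and some animals of the model also had the Rosa26 LSL.tdTomato reporter. Tyr.CreER drives the recombinase in melanocytes, so that 4-OH tamoxifen painted on the flank skin of adult mice switches on mutant Braf there, and tumors arise in the skin of an animal with its own immune system. All 3 tumors share the alleles of the model. The untreated tumor is labelled as such, the regressed tumor had shrunk under vemurafenib, an oral inhibitor of mutant Braf, and the progressed tumor had grown again under it. The labels give neither the sex nor the age at collection, and the days of treatment, which the study gives in part and the labels do not, are not used here. Each group was 1 tumor, so no difference between groups could be set against a spread between animals, and all intervals are 95% intervals that cover counting error only.

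Chemokines are small secreted proteins that guide cells along gradients, and each acts through receptors on the cell that moves. Cxcl9 and Cxcl10 are induced by interferons and draw activated T and NK cells through Cxcr3. Cxcl12 is made by fibroblasts and endothelium in resting tissue and acts through Cxcr4, which keeps neutrophils, B cells and progenitors in place and guides others. Cxcl14 is abundant in healthy skin, where epidermis and dermal fibroblasts make it, and its receptor is less settled. Cxcl16 is unusual in being made as a membrane protein with a mucin stalk, is best known from macrophages and dendritic cells, and is the ligand of Cxcr6, a receptor of tissue-resident and effector T cells, NKT cells and innate lymphoid cells.

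The genes lie on 7 chromosomes of GRCm38. Cxcl9 (chr5:92321331-92328079) and Cxcl10 (chr5:92346638-92348889) are neighbours in the same cluster of chemokine genes. Cxcl12 lies at chr6:117168535-117181368, Cxcl14 at chr13:56288643-56296811, Cxcl16 at chr11:70454389-70459984, Cxcr3 at chrX:101731535-101734147, Cxcr4 at chr1:128588199-128592299 and Cxcr6 at chr9:123806477-123811754. Cxcl10, Cxcl16 and Cxcr6 overlap a gene on the opposite strand, Art3, Zmynd15 and Fyco1, and the counting used sense reads. Since Cxcl9 and Cxcl10 are the interferon-induced pair, the 250 bases before the start of each are shown 5′ to 3′ on the gene's strand, from RefSeq on GRCm38.p6. Both lie on the minus strand, at chr5:92328080-92328329 and chr5:92348890-92349139. Capitals mark matches to 3 patterns searched on both strands, the core of the interferon-stimulated response element (GAAA, any 2 bases, GAAA), the gamma-activated site (TTCNNNGAA) and the kappa B site (GGGA, any 2 bases, TTCC).
Cxcl9: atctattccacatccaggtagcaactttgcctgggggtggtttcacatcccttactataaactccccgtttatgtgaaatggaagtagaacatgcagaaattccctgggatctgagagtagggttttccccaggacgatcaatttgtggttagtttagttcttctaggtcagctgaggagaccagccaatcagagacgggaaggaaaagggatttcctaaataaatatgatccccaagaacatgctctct
Cxcl10: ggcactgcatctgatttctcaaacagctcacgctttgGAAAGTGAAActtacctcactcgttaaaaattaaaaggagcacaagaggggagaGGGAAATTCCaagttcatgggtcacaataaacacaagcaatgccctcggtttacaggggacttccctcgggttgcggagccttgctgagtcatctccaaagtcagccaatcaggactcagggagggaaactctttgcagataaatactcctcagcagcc

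The Cxcl10 window held the interferon element core GAAAGTGAAA at 213 to 204 bases before the start and the kappa B match GGGAAATTCC at 159 to 150 bases before it. The windows of Cxcl9, Cxcl12, Cxcr3, Cxcr4 and Cxcr6 held no match, and that of Cxcl14, which RefSeq counts from a start inside the gene's span, is not described here. Of all 32851 promoters of this length, 2.98% held the interferon element core, 7.02% the gamma-activated site and 1.21% the kappa B site, so these are matches of letters and not shown to be bound.

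The tables held 4095 untreated, 3726 regressed and 4849 progressed cells in 25 clusters named by the authors, with medians of 4496, 2658 and 4566 UMIs per cell, the unique tags that count each captured RNA molecule once. No cell ID was shared between tumors. The regressed tumor stood apart in other ways: Xist was at 0.403 counts per 1000000 UMIs (CPM) against 1494 and 1735 in the untreated and progressed tumors, Y-linked genes at 220 CPM against 0.946 and 1.19, and haemoglobin at 3.96% of UMIs against 0.272% and 0.00848%, so sex cannot be told apart from treatment in any comparison with it. Clusters were grouped into NK/T cells (40 untreated, 238 regressed and 41 progressed cells), other immune cells (1013, 719 and 642), stroma (2628, 1918 and 3422), blood vessel (74, 48 and 28), tumor cells (48, 410 and 160) and the remaining clusters. All 10 stroma clusters carried fibroblast markers. The stroma of the 3 tumors fell into different clusters: Stroma1 and Stroma2 held 61.5% of untreated stroma cells, Stroma9 and Stroma10 held 96.3% of regressed ones, and Stroma6 alone held 36.7% of progressed ones. Tumor1, with 44 of the 48 untreated and 156 of the 160 progressed tumor cells, had melanocyte markers at only 4.53 to 16.9 CPM, against 2189 CPM in Tumor2, which held 349 of the 410 regressed tumor cells, so the name of Tumor1 is not borne out by these markers.

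The 8 genes divided by source. Stroma held most UMIs of Cxcl12 and Cxcl14 in each tumor, other immune cells and stroma shared Cxcl16, and NK/T cells held most of Cxcr6. Over all 3 tumors the counts ran from 104 UMIs of Cxcr3, 473 of Cxcr4 and 622 of Cxcr6 to 1076 of Cxcl9, 1578 of Cxcl10, 5885 of Cxcl16, 30495 of Cxcl12 and 92024 of Cxcl14. The precision therefore differed by gene, and values of Cxcr3 rest on few molecules.

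**Figure D1:**
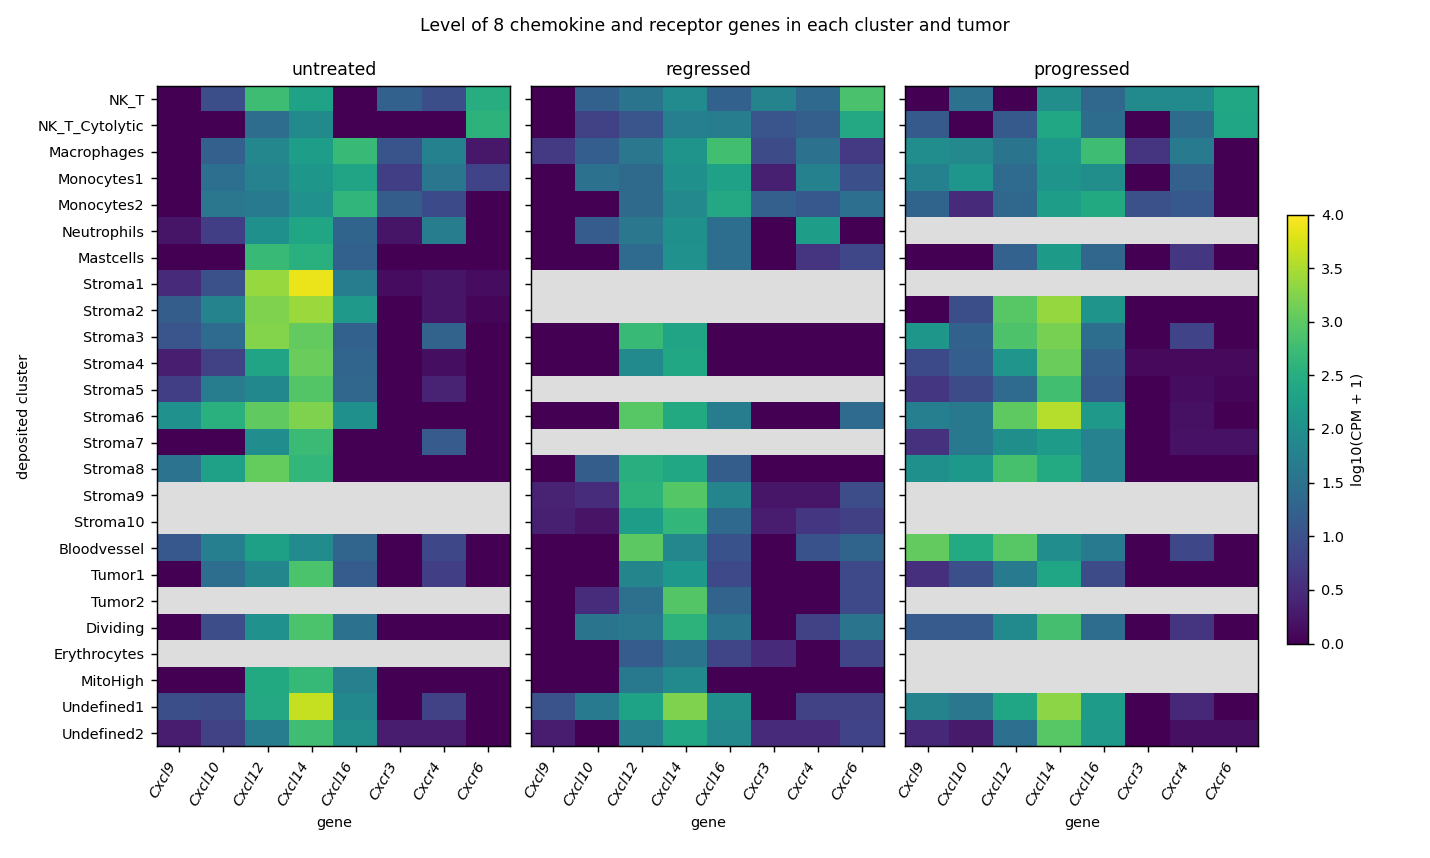
Colour gives log10(CPM + 1) of each of the 8 genes (columns) in each deposited cluster (rows) of the untreated, regressed and progressed tumor, and grey marks clusters with under 10 cells in that tumor. Cxcl12 and Cxcl14 are brightest in stroma clusters, Cxcl16 in macrophages and both monocyte clusters, and Cxcr6 in the NK_T and NK_T_Cytolytic clusters.

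Summed over all cells of a tumor, Cxcl9, Cxcl10, Cxcl12 and Cxcl14 were lower in the regressed tumor than in the untreated one, while Cxcr3 and Cxcr6 were higher. With a call taken as an at least 2-fold difference in CPM and at least 20 UMIs in the pair of tumors, 2 of the 8 genes were called higher and 4 lower. Over all features tested in this comparison, 14.1% were called higher and 6.66% lower (20.7% in either direction). Between the progressed and the regressed tumor, 3 genes (Cxcl9, Cxcl10, Cxcl14) were called higher and 3 (Cxcr3, Cxcr4, Cxcr6) lower, against 5.26% and 15.4% of all features (20.6% in either direction). Between the progressed and the untreated tumor, 1 (Cxcl9) was called higher and 2 (Cxcl12, Cxcr4) lower, against 5.07% and 6.54% (11.6% in either direction). With shared clusters weighted equally the log2 ratio of Cxcr4 turned positive, to 0.32 in the progressed against the regressed and 0.36 in the progressed against the untreated tumor. Neutrophils, which held 70 of 215 untreated and 52 of 153 regressed Cxcr4 UMIs, were too few in the progressed tumor to be a shared cluster. In sums over all cells a change in the number of cells that make a gene and a change in each cell cannot be told apart, and the classes of cells are therefore taken in turn.

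The ligands of stroma were lower in the regressed tumor. Of the 7 genes with enough UMIs there, 5 were called lower than in the untreated tumor (Cxcl9, Cxcl10, Cxcl12, Cxcl14 and Cxcl16) and 1, Cxcr6, was called higher. The corresponding shares of all features were 7.09% and 13.7% (20.8% in either direction). The median log2 ratio of the 7 genes was -2.55, against 0.14 over all features. Between the progressed and the regressed tumor, 3 of 7 were called higher (Cxcl9, Cxcl10, Cxcl14) and 2 lower (Cxcr4 and Cxcr6), against 4.99% and 15.9% of all features (20.8% in either direction), with medians of 0.97 and -0.20. Between the progressed and the untreated tumor, 1 of 6 (Cxcl9) was called higher and 2 (Cxcl12 and Cxcr4) lower, against 3.57% and 5.70% (9.27% in either direction), with medians of -0.89 and -0.06. The regressed stroma cells were shallower, at a median depth of 3152 UMIs against 4654 and 4388, and 96.3% lay in clusters that held 4 untreated and 8 progressed cells. Receptor calls in stroma rest on few UMIs. In the untreated, regressed and progressed tumors these were 2, 35 and 3 of Cxcr6 and 22, 17 and 10 of Cxcr4. The part of depth, of sex and, for the receptors, of free RNA from other cells in these differences was not tested.

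**Figure D2:**
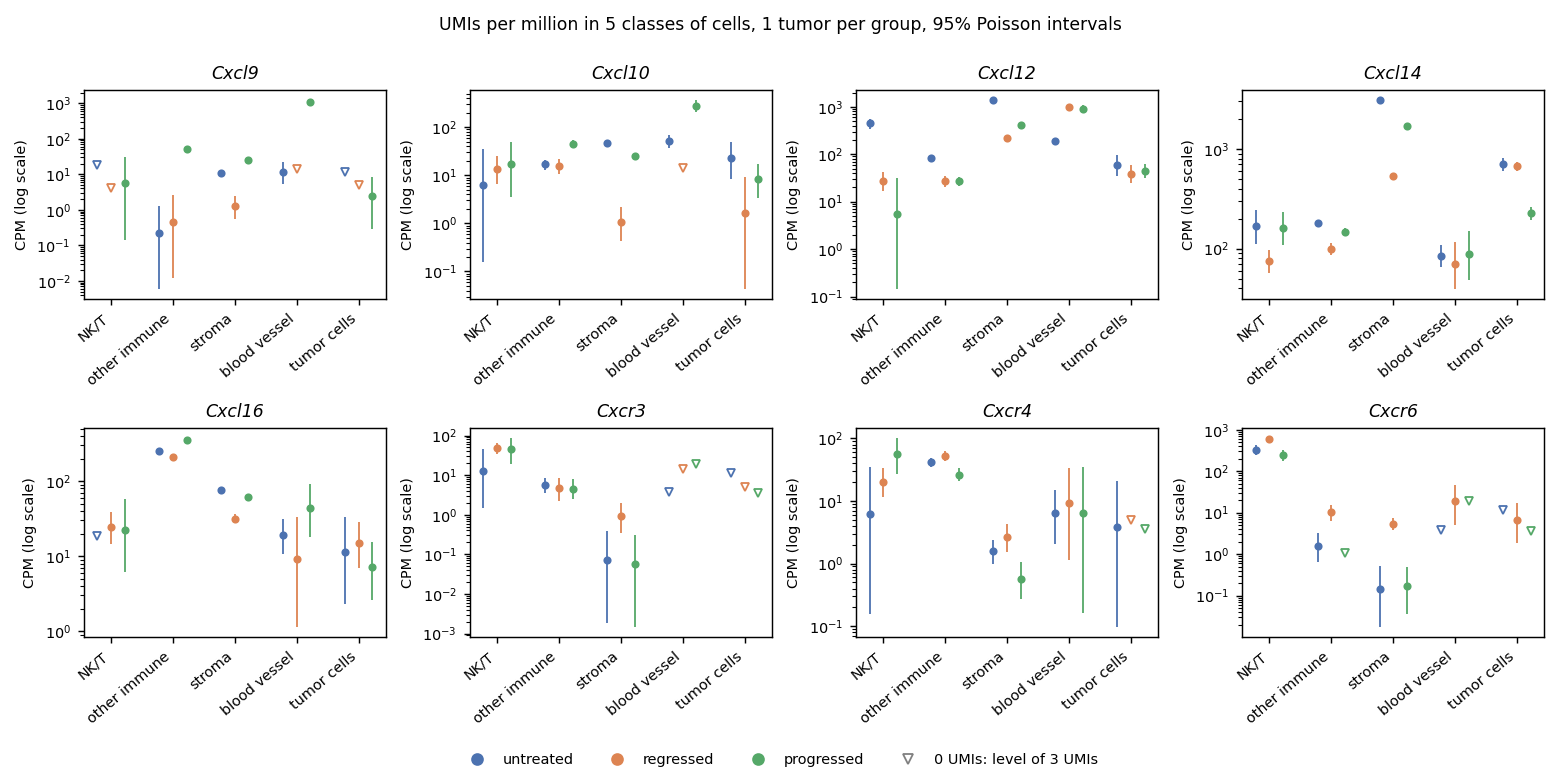
Points give CPM on a log scale for the 8 genes in 5 classes of cells, coloured by tumor (1 tumor per group), with exact 95% Poisson intervals, and open triangles give the level of 3 UMIs where 0 were counted. In stroma the regressed tumor lies lowest for all 5 ligands, at 1.09 CPM of Cxcl10 against 46.7 and 24.7, and in blood vessel it lies with the progressed tumor for Cxcl12, at 975 and 904 CPM against 186.

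Cxcl9 and Cxcl10, the interferon-induced ligands of Cxcr3, were low in every tumor and lowest in the regressed one. Cxcl9 in stroma was at 11.2 CPM (9.54 to 13.1, 158 UMIs) in the untreated, 1.25 CPM (0.538 to 2.45, 8 UMIs) in the regressed and 25.0 CPM (22.7 to 27.5, 440 UMIs) in the progressed tumor. Cxcl10 in stroma was at 46.7 CPM (43.2 to 50.5, 658 UMIs), 1.09 CPM (0.438 to 2.24, 7 UMIs) and 24.7 CPM (22.5 to 27.2, 435 UMIs). None of the 3 intervals overlapped for either gene. The 2 genes thus shared the low value in the regressed tumor but not the order of the others, since the progressed tumor was highest for Cxcl9 and the untreated one for Cxcl10. The log2 ratio of regressed to untreated was -3.17 (-4.41 to -2.16) for Cxcl9 and -5.42 (-6.74 to -4.37) for Cxcl10, and that of progressed to untreated was 1.16 (0.89 to 1.43) and -0.92 (-1.10 to -0.74).

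Few stroma cells carried either transcript. Cxcl9 was found in 3.12% of untreated, 0.209% of regressed and 3.59% of progressed stroma cells, and Cxcl10 in 6.28%, 0.365% and 4.24%. After each cell was thinned to 1000 UMIs, which makes the depths equal, the shares for Cxcl10 were 2.81%, 0.115% and 1.74%, in the same order. Within stroma the untreated Cxcl10 counts lay mainly in Stroma2, with 353 UMIs from 9.35% of its 1144 cells (60.1 CPM), and no cell of that cluster held more than 15 of them. Stroma6 reached 340 CPM in the untreated tumor, but 141 of its 161 UMIs came from 1 cell, and without that cell it was at 43.3 CPM, against 40.4 CPM in the progressed tumor. Stroma6 of the progressed tumor held 302 of the 440 stromal Cxcl9 UMIs, at 53.1 CPM (47.2 to 59.4), against 103 CPM (76.5 to 137) from 49 UMIs in the 83 untreated cells of that cluster. Of these 49 UMIs 29 lay in 2 cells. Without the top 2 cells of each tumor Stroma6 was at 42.3 CPM in the progressed and 44.0 CPM in the untreated tumor. Stroma3 was at 129 CPM in the progressed tumor against 10.4 CPM in the untreated one. In Stroma3, 46 of the 71 progressed UMIs lay in 2 cells, without which it was at 47.0 CPM. Of the 6 stroma clusters shared by these tumors with at least 20 Cxcl9 UMIs, Cxcl9 was higher in the progressed tumor in 3 and lower in 3, Stroma6 among the latter. Of the 4 stroma clusters with at least 10 cells in both the regressed and the untreated tumor, 2 had at least 20 Cxcl10 UMIs in the pair, and Cxcl10 was lower in the regressed tumor in both.

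Stroma cells with Cxcl9 carried Cxcl10 at a higher share than those without it, which is given as a description with no test. In the untreated tumor 21 of the 82 stroma cells with Cxcl9 also had Cxcl10 (25.6%), against 5.66% of those without Cxcl9. In the progressed tumor the figures were 23 of 123 (18.7%) and 3.70%. Cells with Cxcl9 were deeper, at medians of 7003 and 5555 UMIs against 4584 and 4326, and after thinning the shares were 14.3% (3 of 21 cells) against 2.72% and 17.0% (8 of 47) against 1.52%. In the regressed tumor 0 of 4 stroma cells with Cxcl9 had Cxcl10, too few to compare.

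In other immune cells the progressed tumor was highest for both ligands. Cxcl9 there was at 0.230 CPM in the untreated, 0.464 CPM in the regressed and 52.6 CPM in the progressed tumor, from 1, 1 and 149 UMIs. In macrophages of the progressed tumor 71 of 116 Cxcl9 UMIs came from 1 cell, and the level was 91.7 CPM with that cell and 35.9 CPM without it. Cxcl10 in other immune cells was at 16.8 CPM (13.2 to 21.1), 15.3 CPM (10.5 to 21.5) and 45.6 CPM (38.0 to 54.1). The untreated and regressed values overlapped, so the low stromal Cxcl10 of the regressed tumor had no counterpart here, and the log2 ratio of regressed to untreated was -0.13 (-0.77 to 0.48). In macrophages Cxcl10 was at 15.7, 14.8 and 75.9 CPM, with at most 11 of the 96 progressed UMIs in 1 cell. In Monocytes1 it was at 27.6, 30.4 and 125 CPM, but 28 of the 31 progressed UMIs lay in 2 of 53 cells, without which the level was 12.4 CPM. Other immune cells thereby held 39.3% of all Cxcl10 UMIs in the regressed tumor, where stroma held 8.33%, against 9.19% and 82.9% in the untreated and 18.4% and 62.1% in the progressed tumor. In Undefined1, a cluster with keratinocyte markers at 8578 to 13673 CPM, Cxcl9 was at 8.19, 9.68 and 59.9 CPM and Cxcl10 at 7.17, 41.9 and 36.9 CPM. There 75 of the 94 progressed Cxcl9 UMIs came from 2 of 194 cells, without which the level was 12.4 CPM, and 18 of the 26 regressed Cxcl10 UMIs came from 1 cell.

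In blood vessel cells the counts were carried by single cells. Cxcl9 was at 11.6 CPM in the untreated and 1089 CPM in the progressed tumor, with no UMI in the regressed one, but 169 of the 171 progressed UMIs came from 1 cell of 28. That cell held 21219 UMIs in all, with 18 of endothelial and 35 of fibroblast markers, and without it the level was 14.7 CPM. Cxcl10 was at 51.3, 0 and 280 CPM, with 30 of the 40 untreated UMIs in 1 cell and 42 of the 44 progressed UMIs in 2. For the 48 regressed blood vessel cells, 0 UMIs of either gene were set to the floor of 3 UMIs, or 14.0 CPM, and with the top cell left out the log2 ratio of Cxcl10 in the regressed tumor, set to this floor, against the untreated one was 0.22.

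**Figure D3:**
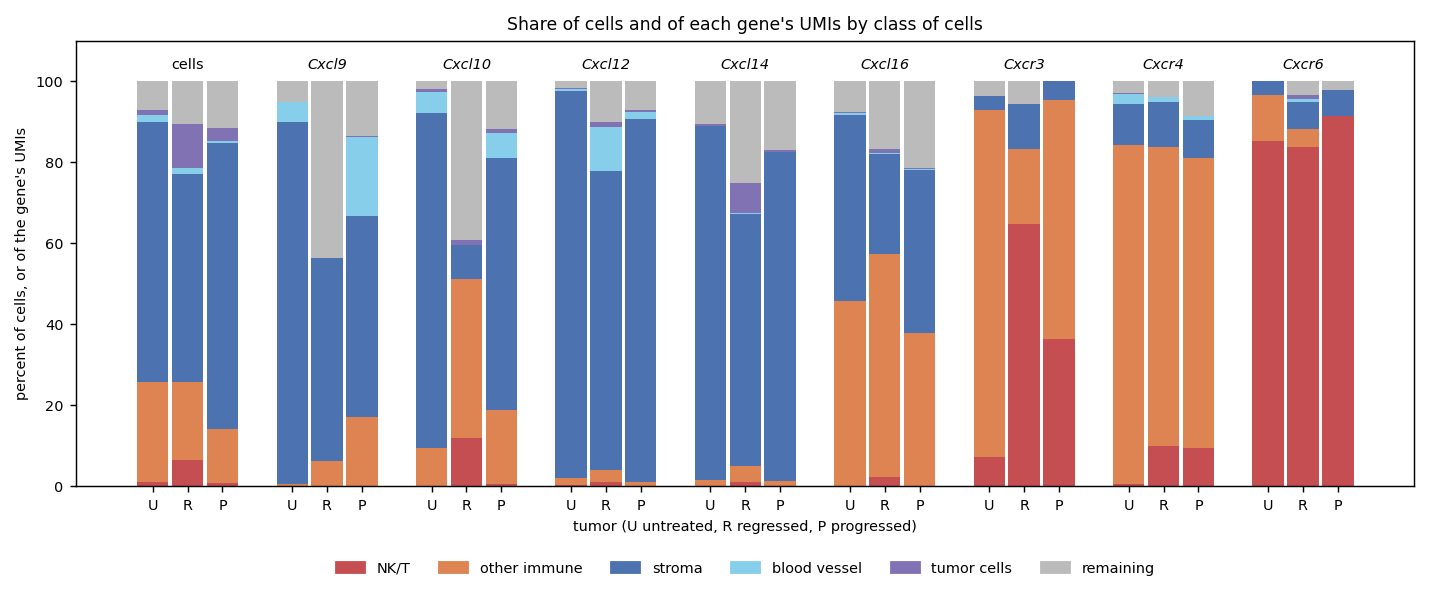
Stacked bars give, for each tumor (U untreated, R regressed, P progressed), the percent of all cells in each class and the percent of the UMIs of each gene found in that class. Stroma holds 82.9% of Cxcl10 UMIs in the untreated but 8.33% in the regressed tumor, and NK/T cells hold 83.9% to 91.5% of Cxcr6 UMIs while being 0.846% to 6.39% of cells.

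Cxcl12, the ligand of Cxcr4, was mainly a stromal transcript. In stroma it was at 1397 CPM (1378 to 1417, 19667 UMIs) in the untreated, 221 CPM (209 to 232, 1417 UMIs) in the regressed and 406 CPM (396 to 415, 7139 UMIs) in the progressed tumor. The untreated tumor was highest and the regressed lowest, and no intervals overlapped. It was found in 74.7%, 32.6% and 48.2% of stroma cells, and in 47.9%, 13.8% and 27.6% after thinning, so the order held at equal depth. The log2 ratio was -2.66 (-2.74 to -2.59) for the regressed and -1.78 (-1.82 to -1.74) for the progressed against the untreated tumor.

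The level of Cxcl12 differed between clusters. It was highest in Stroma1, at 2448 CPM, a cluster present almost only in the untreated tumor. Stroma2 held 9893 of the 19667 untreated stromal UMIs, at 1683 CPM, and was at 908 CPM in the progressed tumor. Stroma8 was at 1149, 321 and 689 CPM, and Stroma4 at 218, 80.8 (from 2 UMIs) and 121 CPM. In Stroma6 it was at 1057 CPM (967 to 1154) in the untreated, 916 CPM (648 to 1257) in the regressed and 1004 CPM (978 to 1030) in the progressed tumor, values whose intervals overlap, with a log2 ratio of -0.07 (-0.21 to 0.06) of progressed to untreated. Of the 38 regressed Stroma6 UMIs, 25 lay in 1 of 13 cells. Without the top cell of each tumor Stroma6 was at 958, 415 and 998 CPM. In Stroma3 Cxcl12 was at 1838, 514 and 772 CPM. Of the 4 clusters shared between the regressed and untreated tumors Cxcl12 was lower in the regressed tumor in all 4, and in 2 of them the interval of the ratio lay below 0. Of the 7 shared between the progressed and untreated tumors it was lower in the progressed tumor in 6, with the interval below 0 in 5. Stroma9 and Stroma10, which made up most of the regressed stroma, were at 381 and 166 CPM.

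Blood vessel cells went the other way for Cxcl12. The level there was 186 CPM (157 to 219, 145 UMIs) in the untreated, 975 CPM (847 to 1116, 209 UMIs) in the regressed and 904 CPM (762 to 1066, 142 UMIs) in the progressed tumor. Against the untreated tumor the log2 ratios were 2.39 (2.08 to 2.70) and 2.28 (1.94 to 2.62). Without the cell that held most Cxcl12 in each tumor the levels were 144, 789 and 595 CPM, in the same order. The share of cells with Cxcl12 was 40.5%, 58.3% and 46.4%, and 14.9%, 36.6% and 35.7% after thinning. Endothelial markers were alike in the 3 tumors, at 1866, 1926 and 1726 CPM, but fibroblast markers were at 963, 3302 and 3063 CPM and the median depth was 9089, 3504 and 4090 UMIs, and their part in this difference was not tested. Within the untreated tumor blood vessel cells lay below Stroma6 by a log2 ratio of -2.51 (-2.78 to -2.24), whereas in the regressed (0.09, -0.41 to 0.63) and progressed tumors (-0.15, -0.40 to 0.09) the interval of this ratio included 0. The regressed ratio rests on 38 Stroma6 UMIs, 25 of them in 1 cell.

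In leukocytes Cxcl12 counts lay with fibroblast-marker counts. The untreated NK_T cluster was at 579 CPM, but 66 of its 70 UMIs lay in 2 of 25 cells, which also held 216 and 156 UMIs of fibroblast markers, and without them it was at 38.9 CPM. Likewise 28 of the 31 UMIs of untreated mast cells lay in 1 cell with 311 UMIs of fibroblast markers. Neutrophils, which are not known to make it, were at 102 CPM in the untreated and 37.0 CPM in the regressed tumor, and other immune cells as a whole were at 82.0, 26.9 and 26.8 CPM. The part of free stromal RNA in these values, and in the calls of Cxcl12 in immune cells, was not tested.

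Cxcl14 had the most UMIs of the 8 genes, and these lay in stroma, in the keratinocyte-marker cluster and, in the regressed tumor, in tumor cells. In stroma it was at 3097 CPM (3068 to 3126, 43591 UMIs) in the untreated, 530 CPM (512 to 548, 3403 UMIs) in the regressed and 1693 CPM (1674 to 1713, 29785 UMIs) in the progressed tumor. The share of stroma cells with a UMI was 78.2%, 43.5% and 75.7%, against 29.9% of untreated and 13.0% of regressed neutrophils, whose median depths were 3257 and 1252 UMIs. After thinning the shares were 54.2%, 24.8% and 50.8% of stroma cells and 12.8% and 11.3% of these neutrophils. The log2 ratio to the untreated tumor was -2.55 (-2.60 to -2.50) for the regressed and -0.87 (-0.89 to -0.85) for the progressed tumor.

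Stroma1, nearly absent from the other tumors, held 22834 of the 43591 untreated stromal UMIs of Cxcl14, at 7736 CPM. In the 7 stroma clusters shared by these tumors Cxcl14 was higher in the progressed tumor in 3 and lower in 4. Stroma6 was higher, at 3588 CPM (3539 to 3637) against 1675 CPM (1561 to 1796), and so was Stroma3, at 1514 against 1089 CPM, while Stroma7 was lower, at 164 against 540 CPM. Of the 42 untreated Stroma7 UMIs, 30 lay in 2 of 18 cells. Without the top 2 cells of each tumor Stroma7 was at 154 against 172 CPM. With the shared clusters weighted equally the log2 ratio of progressed to untreated stroma was 0.22 in place of -0.87. In the regressed tumor, in contrast, Cxcl14 was lower than in the untreated one in all 4 shared clusters, and the interval lay below 0 in all 4. Stroma6 was at 265 CPM (132 to 474) there, although it rested on 13 cells.

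Cxcl14 and Cxcl12 overlapped in cells as well as in clusters. Of untreated stroma cells with Cxcl12, 81.6% also had Cxcl14, against 68.3% of those without it. The same shares were 57.1% and 37.0% in the regressed and 83.8% and 68.2% in the progressed tumor. After thinning they were 61.8% and 47.2%, 28.8% and 24.1%, and 67.9% and 44.3%. The difference after thinning was thus smallest in the regressed tumor.

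**Figure D4:**
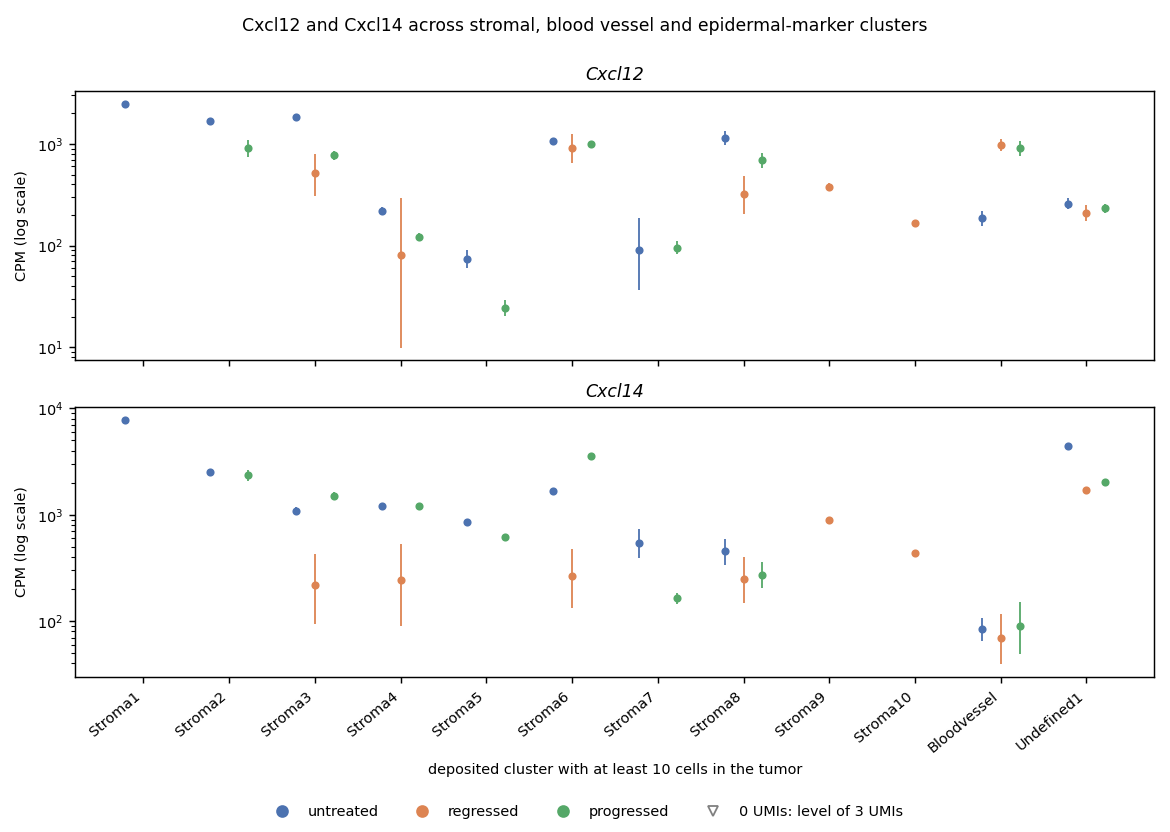
Points give CPM on a log scale of Cxcl12 (upper panel) and Cxcl14 (lower panel) in the 10 stroma clusters, the blood vessel cluster and Undefined1, for clusters with at least 10 cells in the tumor, coloured by tumor with exact 95% Poisson intervals. Cxcl12 in Stroma6 stands at 1057, 916 and 1004 CPM, but 25 of the 38 regressed UMIs lie in 1 cell. Cxcl14 in Stroma6 ranges from 265 CPM in the regressed to 3588 CPM in the progressed tumor.

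Outside stroma, Cxcl14 in Undefined1 was at 4393 CPM (4262 to 4526) in the untreated, 1695 CPM (1594 to 1801) in the regressed and 2035 CPM (1965 to 2107) in the progressed tumor. Epidermis is a known source of this chemokine, and the untreated value was again highest. Undefined2 was at 587, 238 and 902 CPM. In tumor cells it was at 701, 671 and 226 CPM, from 2 clusters. In Tumor2 of the regressed tumor 44.7% of the 349 cells had a UMI, at 854 CPM (770 to 944), above the 101 CPM of neutrophils of that tumor. In Tumor1 the level was 748, 132 and 221 CPM, and 91 of the 165 untreated UMIs came from 1 cell, without which it was at 359 CPM. Tumor cells had 2 genes with enough UMIs, Cxcl12 and Cxcl14. Neither was called between the regressed and untreated tumors, where 16.0% of all features were called higher and 6.70% lower (22.7% in either direction). Cxcl14 was called lower in the progressed tumor than in the regressed one, against 5.54% of all features called higher and 11.6% lower (17.2% in either direction). It was also called lower than in the untreated tumor, against 9.70% higher and 5.60% lower (15.3% in either direction). The first of these calls rests on Tumor2: within Tumor1, the only cluster both tumors share, the log2 ratio of progressed to regressed was 0.74. The call against the untreated tumor, at a log2 ratio of -1.63, was lost without the top cell (-0.94), with equal weight per cell (-0.82) and with thinned cells (-0.42), and 91 of the 185 untreated UMIs lay in 1 cell.

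Cxcl16, the ligand of Cxcr6, was highest in macrophages and had the narrowest range of the 5 ligands over all cells, from 66.1 CPM in the regressed to 107 CPM in the untreated tumor. In macrophages it was at 521 CPM (481 to 563) in the untreated, 605 CPM (516 to 705) in the regressed and 565 CPM (524 to 608) in the progressed tumor, with 69.6%, 51.7% and 69.0% of cells carrying it. The intervals overlapped. After thinning the shares were 39.8%, 30.4% and 43.7%, and in neutrophils, which serve as the background, the level was 18.4 CPM in the untreated and 26.9 CPM in the regressed tumor. Monocytes1 was lower, at 216, 192 and 92.5 CPM, and Monocytes2, which carried dendritic cell markers at 552 to 764 CPM, was at 426, 262 and 268 CPM. Within each tumor macrophages lay above Monocytes1, by log2 ratios of 1.27 (1.05 to 1.49), 1.66 (1.33 to 1.98) and 2.61 (2.01 to 3.28). In the progressed Monocytes1, 10 of the 23 UMIs came from 1 cell.

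In stroma Cxcl16 was lower than in macrophages. It was at 76.8 CPM (72.3 to 81.5) in untreated, 31.6 CPM (27.4 to 36.3) in regressed and 61.7 CPM (58.1 to 65.5) in progressed stroma, and the regressed value again was lowest. The share of stroma cells with a UMI was 26.4%, 9.12% and 21.8%, against 4.09% of untreated and 3.70% of regressed neutrophils at median depths of 3257 and 1252 UMIs. After thinning it was 6.62%, 2.42% and 6.91%, against 1.57% and 2.82% of these neutrophils, so the share of regressed stroma as a whole did not exceed this background. Its clusters differed: Stroma9 was at 65.8 CPM (91 UMIs, at most 4 in 1 cell), above the CPM of regressed neutrophils given above. Stroma10 was at 22.4 CPM (109 UMIs), below it. Stroma2 was at 137 CPM in the untreated and 116 CPM in the progressed tumor and Stroma6 at 101, 48.2 and 143 CPM. The stroma share of all Cxcl16 UMIs was 45.7%, 24.7% and 40.2%, close to that of other immune cells in the untreated (45.8%) and progressed (37.6%) tumors and below it in the regressed one (55.1%). Undefined1 was at 72.7, 93.5 and 157 CPM. In other immune cells as a whole Cxcl16 was at 250, 210 and 359 CPM, while macrophages were 312 of 1013, 143 of 719 and 339 of 642 of these cells. With shared clusters weighted equally the log2 ratio of progressed to untreated turned from 0.52 to -0.32.

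Among other immune cells 1 of the 7 genes with enough UMIs was called higher in the regressed tumor than in the untreated one (Cxcr6, 22 against 7 UMIs) and 1 lower (Cxcl12), against 19.9% and 3.56% of all features (23.5% in either direction). Between the progressed and regressed tumors 2 of 8 (Cxcl9 and Cxcl10) were called higher and 1 (Cxcr6) lower, against 4.43% and 12.8% (17.2% in either direction). Between the progressed and untreated tumors 2 of 7 (the same 2 genes) were called higher and 1 (Cxcl12) lower, against 9.71% and 5.98% (15.7% in either direction). In blood vessel cells 1 of 3 genes (Cxcl12) was called higher and 1 (Cxcl10) lower in the regressed against the untreated tumor, beside 14.1% and 10.7% of all features (24.8% in either direction). In the progressed against the regressed tumor 2 of 4 (Cxcl9 and Cxcl10) were called higher and 0 lower, beside 8.54% and 11.8% (20.3% in either direction). In the progressed against the untreated tumor 4 of 5 (Cxcl9, Cxcl10, Cxcl12 and Cxcl16) were called higher and 0 lower, beside 8.62% and 11.9% (20.5% in either direction), and the calls of Cxcl9 and Cxcl10 rest on the single cells given above. The Cxcl16 call sets 7 UMIs against 15, and the interval of its log2 ratio (1.21, -0.32 to 2.59) included 0.

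The receptors lay in leukocytes. Cxcr6 lay mainly in the NK_T and NK_T_Cytolytic clusters, which held 85.2%, 83.9% and 91.5% of its UMIs in the untreated, regressed and progressed tumors. The name of the clusters was checked with markers: the T cell gene Cd3e was at 421, 450 and 668 CPM in NK_T and at 5832, 2907 and 4497 CPM in NK_T_Cytolytic, and the perforin gene Prf1 was at 937, 709 and 680 CPM in NK_T_Cytolytic. Il7r, a marker of resting and resident lymphocytes, was at 231, 721 and 236 CPM in NK_T and at 0 in NK_T_Cytolytic of all 3 tumors. The NK cell gene Ncr1 was at 66.1, 66.9 and 0 CPM in NK_T and at 0 in NK_T_Cytolytic. Nkg7 was at 5858, 4191 and 3472 CPM in NK_T_Cytolytic. The granzyme gene Gzma was at 0 in that cluster of all 3 tumors. In NK_T it was at 0, 171 and 5692 CPM, the last value from 1 cell. Cd4 was at 0, 0 and 12.4 CPM and both Cd8a and Cd8b1 at 0, 15.4 and 0 CPM in NK_T_Cytolytic. The cytolytic name is thus borne out by Prf1 and Nkg7 but not by Gzma. The sum of 5 fibroblast markers was at 1172 to 4612 CPM in these clusters, against 23396 to 44199 CPM in stroma.

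Cxcr6 was highest in NK/T cells of the regressed tumor. It was at 326 CPM (244 to 428, 52 UMIs) in the 40 untreated cells, 588 CPM (534 to 646, 431 UMIs) in the 238 regressed cells and 241 CPM (175 to 325, 43 UMIs) in the 41 progressed cells. The regressed interval lay above the others, which overlapped. The log2 ratio was 0.85 (0.43 to 1.29) for regressed to untreated, below the 2-fold limit, and -1.29 (-1.77 to -0.83) for progressed to regressed. The share of NK/T cells with a UMI ran the other way, at 67.5%, 52.5% and 34.1%, and at 41.0%, 31.2% and 24.4% after thinning, so that no order of the untreated and regressed tumors is read from the shares. Stroma, as background, was at 0.142, 5.45 and 0.171 CPM, with 0.0761%, 1.77% and 0.0877% of cells.

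The difference lay in the NK_T cluster. There Cxcr6 was at 306 CPM (215 to 421), 706 CPM (637 to 781) and 247 CPM (158 to 367), whereas in NK_T_Cytolytic it was at 391 CPM (219 to 644), 262 CPM (195 to 344) and 235 CPM (141 to 367), with overlapping intervals. Within the regressed tumor NK_T exceeded NK_T_Cytolytic by a log2 ratio of 1.43 (1.01 to 1.88). In the untreated (-0.35, -1.25 to 0.62) and progressed tumors (0.07, -0.86 to 1.02) the interval included 0. Over all cells Cxcr6 was at 2.75, 41.4 and 1.74 CPM, 15.1-fold higher in the regressed tumor than in the untreated one, while NK/T cells were 0.977%, 6.39% and 0.846% of cells.

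**Figure D5:**
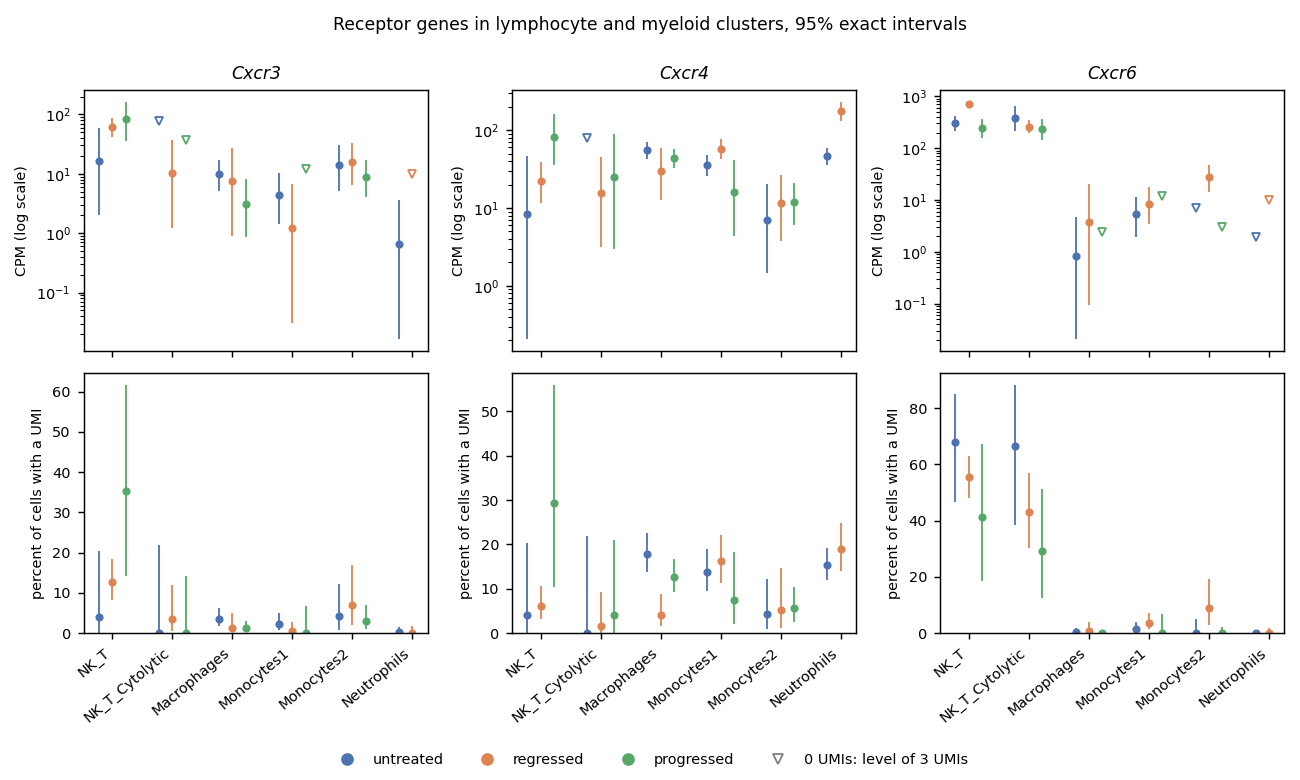
The upper panels give CPM on a log scale and the lower panels the percent of cells with a UMI for Cxcr3, Cxcr4 and Cxcr6 in 2 lymphocyte and 4 myeloid clusters, coloured by tumor with exact 95% intervals, clusters under 10 cells are left out, and open triangles give the level of 3 UMIs where 0 were counted. Cxcr6 stands at 235 to 706 CPM in both lymphocyte clusters of each tumor and at most at 27.6 CPM in the myeloid ones, and of the points drawn for Cxcr4 the highest is that of regressed neutrophils, at 175 CPM.

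Cxcr3, the receptor of Cxcl9 and Cxcl10, was sparse. In NK/T cells 2, 35 and 8 UMIs were counted in the untreated, regressed and progressed tumors, giving 12.5 CPM (1.52 to 45.3), 47.7 CPM (33.3 to 66.4) and 44.9 CPM (19.4 to 88.4). All intervals overlapped, and both untreated UMIs came from the NK_T cell with 216 fibroblast-marker UMIs. In the regressed tumor Cxcr3 lay in NK_T (33 UMIs, 61.3 CPM) rather than NK_T_Cytolytic (2 UMIs, 10.3 CPM), with a log2 ratio of 2.58 (0.61 to 5.68). Of the 25 regressed NK/T cells with Cxcr3, 16 also had Cxcr6, against 51.2% of the other NK/T cells of that tumor, at median depths of 3282 and 2674 UMIs, and after thinning 5 of 10 had it against 30.4%. In the progressed tumor the order was the opposite, with 1 of 6 against 37.1%, and in the untreated tumor 0 of 1 had it, so no relation is read from these few cells. NK/T cells held 64.8% of Cxcr3 UMIs in the regressed tumor but 7.14% in the untreated one, where other immune cells held 85.7%. Among these, Monocytes2 was at 14.1, 16.1 and 8.89 CPM.

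Cxcr4, the receptor of Cxcl12, had most of its UMIs in myeloid cells in each tumor. Other immune cells held 83.7%, 73.9% and 71.4% of its UMIs. Neutrophils were at 46.0 CPM (35.9 to 58.1, 70 UMIs in 391 cells) in the untreated and 175 CPM (131 to 229, 52 UMIs in 216 cells) in the regressed tumor, and the progressed tumor had 4 neutrophils with 3 UMIs. Macrophages were at 55.4, 29.7 and 43.5 CPM and Monocytes1 at 35.6, 57.1 and 16.1 CPM. In the regressed tumor neutrophils thus exceeded macrophages by a log2 ratio of 2.56 (1.47 to 3.84), while in the untreated tumor the ratio was -0.27 (-0.77 to 0.24). In NK/T cells 1, 15 and 10 UMIs gave 6.27, 20.5 and 56.1 CPM, with 4 of the 8 progressed NK_T UMIs in 1 cell. Other immune cells as a whole were at 41.5, 52.4 and 26.5 CPM. In the progressed tumor NK/T cells (26.9 to 103) thus lay above them (20.8 to 33.2), with overlapping intervals. In stroma Cxcr4 was at 1.56, 2.65 and 0.568 CPM, and at 17.8 CPM in untreated Stroma3.

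Calls in NK/T cells fell on receptors and on ligands. In the regressed against the untreated tumor 1 of 4 genes (Cxcr3) was called higher and 2 (Cxcl12 and Cxcl14) lower, against 21.0% and 3.93% of all features (24.9% in either direction). The Cxcr3 call sets 35 UMIs against 2, and the interval of its log2 ratio (1.93, -0.03 to 5.03) included 0. In the progressed against the regressed tumor 2 of 6 (Cxcl14 and Cxcr4) were higher and 2 (Cxcl12 and Cxcr6) lower, against 4.79% and 16.9% (21.7% in either direction). This Cxcl12 call sets 1 UMI against 20, and the interval of its log2 ratio (-2.28, -7.66 to 0.36) included 0. Without the top cell of each gene the 4 calls of this comparison became 2. Of the 29 progressed Cxcl14 UMIs, 16 lay in 1 NK_T_Cytolytic cell. The log2 ratio of Cxcl14 was then 0.04, and Cxcl12 had 12 UMIs in both tumors together, under the minimum of 20. Cxcr4, without 4 of its 10 progressed and 3 of its 15 regressed UMIs, was under this minimum as well. The count of 2 did not apply the minimum again. In the progressed against the untreated tumor 0 of 3 were higher and 1 (Cxcl12) lower, against 8.16% and 4.27% (12.4% in either direction). The Cxcl12 calls against the untreated tumor rest on the 2 cells with fibroblast markers, and with thinned cells the log2 ratio of Cxcl14 in the regressed against the untreated tumor turned from -1.17 to 0.29.

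Several other chemokine receptors were higher in the regressed NK/T cells. Of the listed receptors, 5 of the 6 with enough UMIs were at least 2-fold higher in the regressed tumor than in the untreated one and 0 lower, beside 21.0% and 3.93% of all features, and between the progressed and regressed tumors 0 were higher and 5 lower, beside 4.79% and 16.9%. The median log2 ratio of the list in the regressed against the untreated tumor was 1.71, against 0.26 over all features. The regressed class held 733000 UMIs against 159409 and 178279, so genes could reach the minimum mainly through the tumor where they were high. Between the progressed and untreated tumors only 2 of the 11 receptors reached it. NK_T also made up 25 of 40, 180 of 238 and 17 of 41 NK/T cells. The part of this filter and make-up was not tested. Ccr2, which draws cells towards Ccl2, was at 132 CPM in the untreated, 546 CPM in the regressed and 185 CPM from 33 UMIs in the progressed tumor. S1pr1, the receptor by which lymphocytes leave tissue, was at 6.27, 53.2 and 11.2 CPM from 1, 39 and 2 UMIs. It is not a chemokine receptor but is counted among the listed receptors above. The list's exceptions were Ccr6 between the regressed and untreated tumors, at 32.7 and 31.4 CPM, and Cx3cr1 between the progressed and regressed, at 118 and 80.5 CPM. The chemokines that NK/T cells themselves make did not share this pattern. Ccl4 was at 652, 319 and 11.2 CPM, Ccl3 at 207, 70.9 and 39.3 CPM, Ccl5 at 790, 508 and 432 CPM and Xcl1 at 878, 573 and 583 CPM, so that 0 of 4 were called higher and 2 lower in the regressed against the untreated tumor, beside the same 21.0% and 3.93%.

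Among other immune cells 5 of 8 further lymphocyte-attracting chemokines were at least 2-fold higher in the progressed than in the untreated tumor and 2 were lower, beside 9.71% and 5.98% of all features. Ccl5, another ligand for T cells, was at 16.8, 63.1 and 377 CPM, Cxcl13, which draws B cells, at 4.61, 30.6 and 104 CPM, and Ccl17, a product of dendritic cells, at 71.4, 44.1 and 433 CPM. Ccl3 and Ccl4 went the other way, at 1636, 699 and 451 CPM and at 1607, 799 and 617 CPM. Summed over this class, then, Cxcl9 and Cxcl10 were higher in the progressed tumor together with Ccl5, and Ccl3 and Ccl4 were not. The make-up of the class differed, with 391 untreated and 216 regressed neutrophils but very few progressed ones. Monocytes2, with dendritic cell markers, held 69, 57 and 161 cells. The part of this make-up in these sums was not tested. Cxcl11, the remaining ligand of Cxcr3, had only 3, 1 and 3 UMIs.

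Of the interferon gamma axis, the list that holds the inducers of Cxcl9 and Cxcl10, 1 of 8 genes was called higher and 1 lower in regressed against untreated stroma, beside 13.7% and 7.09% of all features. The lower one was Irf1, a transcription factor induced by interferon gamma, at 321, 57.6 and 215 CPM. The higher one was Tnf, at 1.14, 4.98 and 1.08 CPM. Between progressed and regressed stroma 2 of 8 were called higher, Irf1 and Ifngr2, and 1 lower, Tnf, beside 4.99% and 15.9%. Ifng itself had 6, 21 and 8 UMIs over all cells, of which NK/T cells held 6, 14 and 5. Among the scavenging receptors, proteases and core proteins that act on these ligands, 0 of 8 were called in stroma in any of the 3 comparisons. Ackr3, the scavenging receptor of Cxcl12, was at 11.9, 8.09 and 7.62 CPM in stroma, and Adam10, which sheds Cxcl16 from the membrane, at 41.8, 53.1 and 41.3 CPM. Mmp9, a protease of neutrophils and macrophages, was at 220, 74.7 and 15.5 CPM in other immune cells, a class with very few neutrophils in the progressed tumor.

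The genes with the most similar patterns were sought over 53 groups of cluster and tumor with at least 20 cells, by Pearson correlation of log2(CPM + 10) among 10477 genes. These groups share libraries, depth and stray RNA, so the values are descriptions. Cxcl9 and Cxcl10 were nearest to each other (0.72), followed for Cxcl9 by Gbp2 (0.70) and Iigp1 (0.61) and for Cxcl10 by Gbp3 (0.66) and Pnp (0.63). Gbp2, Gbp3 and Iigp1 encode interferon-induced GTPases. Cxcl12 was nearest to Igfbp4 (0.81), Fzd4 (0.80) and Ccn1 (0.80), and Cxcl14 to Bmpr1a (0.79) and Tlcd2 (0.77). Cxcl16 was nearest to Zmynd15 (0.76), the gene it overlaps on the other strand, then Slc29a3 (0.74) and Ifi30 (0.73). Among the receptors, Cxcr6 was nearest to the lymphocyte genes Cd2 (0.96), Il2rb (0.94) and Lck (0.94), Cxcr3 to Il7r (0.76), Dok2 (0.73) and Traf1 (0.73), and Cxcr4 to the myeloid receptors Ccr1 (0.89), C5ar1 (0.87) and Cd300ld (0.86). Between members, Cxcr3 and Cxcr6 reached 0.66 and Cxcl12 and Cxcl14 0.59, while each receptor and its ligand had low values, at -0.20 for Cxcl9 and Cxcr3, -0.30 for Cxcl12 and Cxcr4 and -0.17 for Cxcl16 and Cxcr6.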

How the data were processed

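Single cells of 3 tumors were profiled with a droplet kit that reads transcript 3′ ends. Per the study's methods and the submitters' processing notes, the authors aligned reads to GRCm38 with GSNAP, counted UMIs of uniquely mapped reads overlapping exons in sense, left out cells with under 300 UMIs and clustered the cells with Seurat 2.2.0. The deposited values are raw counts of UMIs per Entrez ID and cell, and the deposited cell table gives cluster names (unit: other), which were kept. The count tables summed to 5.17%, 6.09% and 4.42% more than the deposited totals in the untreated, regressed and progressed tumors, from a source not found. Symbols were matched for 31049 of 36530 features, the 8 genes included.

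UMIs were summed per cluster or class and tumor and divided by 1000000 UMIs (CPM). Intervals are 95% exact Poisson for CPM, Clopper-Pearson for shares and conditional binomial for ratios, and 0 UMIs were set to a floor of 3 over the group. PCR and free RNA are not covered by them. With 1 tumor per group no test was run. A gene was called at a 2-fold difference with at least 20 UMIs in the pair of tumors. Shares were repeated with cells thinned to 1000 UMIs, which kept 4003, 3023 and 4794 cells. Doublets were not called here, and no source used here states their removal. The members and gene lists were chosen with earlier results of these data known. The genes named are the 8 members, the listed genes with at least 20 UMIs in a class, and the 3 genes most like each member, among genes with at least 500 UMIs. Some genes that this rule takes, and an allele of the model, are not reported here. Cxcl11 and Ifng were named outside that rule. Markers of 13 cell types were summed, of which Trac and Trbc2 could not be matched. Alternatives were TMM scaling (edgeR 4.0.16, R 4.3.3), thinning, equal weight per cell, leaving out the deepest 5% of cells, equal weight per cluster and, chosen after seeing the data, leaving out the cell with the most UMIs of a gene. Calculations (Python 3.11.15, numpy 2.4.6, scipy 1.17.1) were tested on simulated data.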

Additional observations from a re-analysis of the deposited data

How the results depend on the processing

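No paired analysis was possible because each group was 1 tumor and no test was run. Over 6 alternatives, 382 of 582 log2 ratios of single genes stayed within their counting interval, 182 moved beyond it with the same sign and 18 changed sign. Thinning changed 251 of 480 shares of cells and 72 of 144 shares of UMIs beyond their intervals, and leaving out the deepest cells 27 of 144. The counts of genes called in stroma, other immune cells and all cells stayed within 1.5 times under each of these alternatives. In NK/T cells the calls were 3 in the regressed against the untreated tumor and 1 with thinned cells, 4 in the progressed against the regressed tumor and 2 without the top cell of each gene, and 1 in the progressed against the untreated tumor and 2 with thinned cells. In blood vessel cells 2 calls in the regressed against the untreated tumor became 1 without the top cell, 2 in the progressed against the regressed became 1 without the top cell and 1 without the deepest cells, and 4 in the progressed against the untreated became 2 without the deepest cells. In tumor cells 0 calls in the regressed against the untreated tumor became 1 with thinning, equal weight per cell, without the deepest cells and with equal clusters, 1 in the progressed against the regressed became 0 with equal clusters, and 1 in the progressed against the untreated became 0 with thinning, equal weight per cell and without the top cell.

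The log2 ratios that changed sign were these. With equal weight per cluster, Cxcr4 over all cells was 0.32 in the progressed against the regressed and 0.36 against the untreated tumor, Cxcl16 in other immune cells was -0.20 and -0.32 in the same pairs, Cxcl14 in stroma was 0.22 in the progressed against the untreated tumor, and Cxcl14 in tumor cells was 0.74 in the progressed against the regressed tumor. Cxcl16 in the progressed against the untreated tumor was 0.022 with thinning, 0.00395 with equal weight per cell and 0.0750 with equal clusters over all cells, and 0.10, 0.0092 and 0.55 in stroma. With thinning, Cxcl14 was 0.29 in NK/T cells (regressed against untreated) and 0.072 in other immune cells (progressed against untreated). In blood vessel cells Cxcl10 in the regressed against the untreated tumor was 2.44 with thinning and 0.22 without the top cell, both with floors in place of 0 UMIs, and Cxcl9 in the progressed against the regressed was -0.15 without the deepest cells and -0.059 without the top cell. The cause of these changes was not tested. TMM factors lay between 0.837 and 1.18. Few UMIs limit Cxcr3 in NK/T cells, and few cells limit regressed Stroma6 (13) and progressed neutrophils (4).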
